A study of Mus musculus with 4 samples.

Results

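Collagen chain genes were followed in primary mouse microglia treated with epigallocatechin gallate (EGCG). Members were the protein-coding genes of both deposited count tables whose symbol is Col, a number, the letter a and a number, which gave 44 of 22046 protein-coding genes. RNA came from microglia grown from the cortex of male CD1 pups aged 1 to 3 days, freed of the astrocyte layer with trypsin, and kept in serum-free medium with IL-34, TGFβ2, GM-CSF and cholesterol. The cells then received 1 µM EGCG, a catechin of green tea, or the DMSO vehicle for 24 h. There were 4 poly-A libraries, 2 biological replicates per group, and each replicate number had 1 vehicle and 1 EGCG library in a count table of its own. The libraries are called V1 and V2 (vehicle, replicates 1 and 2) and E1 and E2 (EGCG, replicates 1 and 2), and values are given in the order V1, E1, V2, E2 where no library is named. Whether a shared number also marks shared animals or a shared preparation was not stated, so p-values measure the spread between these libraries.

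Collagens are the proteins that give connective tissue its tensile strength. Each chain carries stretches in which glycine recurs every 3 residues, written Gly-X-Y, and 3 such chains wind into a triple helix. Fibrillar chains have an almost unbroken helix and pack into banded fibrils. Basement membrane (type IV) chains have an interrupted, flexible helix and form sheets. FACIT chains (fibril-associated collagens with interrupted triple helices) sit on the surface of fibrils. The remaining chains form beaded filaments, hexagonal networks and anchoring fibrils, or span the cell membrane. In the brain the collagens are best known from the meninges and the vessel wall, where fibroblasts, endothelial cells and pericytes make most of them.

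The fibrillar genes stood apart in their coding sequences. In the longest coding sequence of each of the 44 genes (GENCODE release M21, GRCm38), the longest unbroken Gly-X-Y run held 216 to 344 triplets in the 11 fibrillar genes. It held 39 to 66 triplets in the 6 basement membrane genes, 32 to 113 in the 9 FACIT genes and 23 to 87 in the 18 others. The repeat is also built into the exons: of the 42 coding exons of Col3a1 that lay inside its longest run, all 42 had a length divisible by 9 bases and 24 were exactly 54 bases long. Whole exons from 1 or 2 genes of each class are printed to show the repeat that defines the family, with glycine codons in capitals.
Col3a1 (fibrillar), coding exon 6, chr1:45325360-45325413, + strand: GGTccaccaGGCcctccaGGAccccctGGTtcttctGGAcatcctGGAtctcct
Col24a1 (fibrillar), coding exon 7, chr3:145328731-145328784, + strand: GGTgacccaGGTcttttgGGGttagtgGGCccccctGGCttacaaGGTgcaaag
Col4a1 (basement membrane), coding exon 3, chr8:11247006-11247095, − strand: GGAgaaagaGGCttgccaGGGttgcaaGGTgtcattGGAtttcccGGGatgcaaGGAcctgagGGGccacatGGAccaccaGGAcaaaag
Col12a1 (FACIT), coding exon 56, chr9:79612916-79612969, − strand: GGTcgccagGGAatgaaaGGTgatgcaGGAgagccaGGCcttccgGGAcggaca
Col23a1 (transmembrane), coding exon 5, chr11:51527868-51527894, + strand: GGGcaatcaGGAcgagatGGCtacccg
Each printed exon opens with a glycine codon and returns to glycine every 3 codons, with 6 glycine codons in the 54 bases of Col3a1, Col24a1 and Col12a1, 10 in the 90 bases of Col4a1 and 3 in the 27 bases of Col23a1.

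Library totals ranged from 33752397 counts (V1) to 54909854 (E2), so that a floor of 3 counts stood for 0.0546 to 0.0889 CPM. CPM are counts scaled to 1000000 counts per library, here with TMM factors for genes and without them for the floor. Microglia markers summed to 6763 to 9273 CPM in the 4 libraries and none of the 10 was at or under 3 counts in any of them. E1 stood apart from the other 3 libraries in the counts of some collagen genes, whereas V1 stood apart in their summed share. Values of replicate 2, which include neither E1 nor V1, are given beside those of replicate 1. Intervals printed for single libraries are exact 95% intervals and cover counting error only.

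Collagen chains were a small part of the RNA. They took 0.0945% of protein-coding counts in V1 (exact 95% interval 0.0935 to 0.0956), 0.0315% in E1 (0.0309 to 0.0321), 0.0329% in V2 (0.0323 to 0.0335) and 0.0372% in E2 (0.0367 to 0.0377). The EGCG share was thus lower than vehicle in replicate 1 and higher in replicate 2. Vehicle averaged 0.0637% ± 0.0436 (SD, n = 2) and EGCG 0.0343% ± 0.00405 (SD, n = 2), a difference smaller than the spread between the vehicle libraries (two-sided exact permutation test p = 0.667, and 2 against 2 libraries cannot reach 0.05). Without V1, the EGCG libraries exceeded the remaining vehicle library by 0.00142 percentage points, so this library set the sign of the difference.

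Of the 44 genes, 32 had at least 10 counts summed over the 4 libraries and entered the test, 11 of 11 fibrillar, 4 of 6 basement membrane, 6 of 9 FACIT and 11 of 18 other genes. The filter reads all libraries together, so a gene could pass on 1 library alone. The 12 left out summed to at most 6 counts each, and 3 of them (Col9a1, Col10a1 and Col13a1) had no count in any library. Col10a1 belongs to the growth plate, Col9a1 to cartilage and Col13a1 to cell adhesion sites. The basement membrane genes Col4a3 and Col4a4, the chains of the kidney filter that lie head to head with 71 bases between them, had 1 count each, both in E1.

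**Figure D1:**
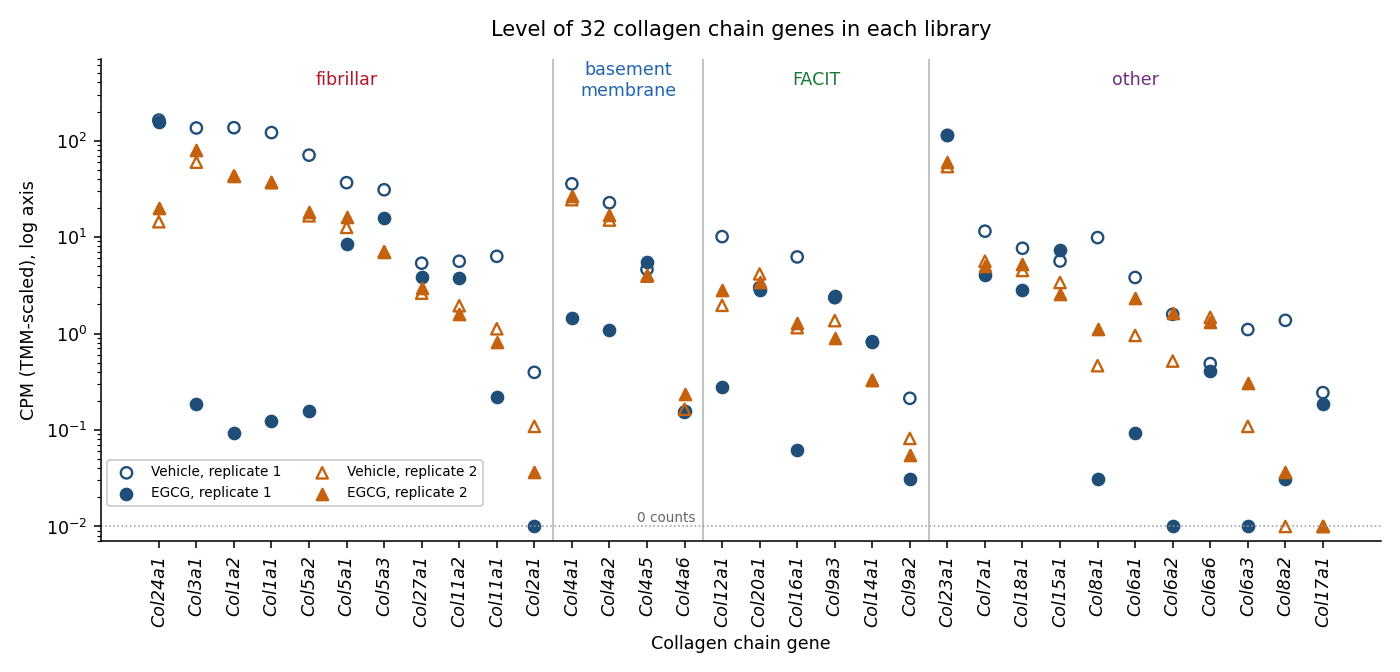
CPM (TMM-scaled, log axis) of each of the 32 tested collagen genes in the 4 libraries, ordered by class and mean level; open symbols are vehicle, filled symbols EGCG, circles replicate 1 (V1, E1) and triangles replicate 2 (V2, E2), and libraries without a count are drawn on the dotted line. The E1 points of Col3a1, Col1a2, Col1a1 and Col5a2 lie between 0.0936 and 0.187 CPM while the other 3 libraries lie between 16.6 and 136.

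Fibrillar collagens were the most abundant class, and 6 of the 11 had 7 counts or fewer in E1. The 11 genes summed to 710 CPM in V1, 187 in E1, 196 in V2 and 226 in E2. Within replicate 1, 7 of the 11 were lower in EGCG by more than 1 on the log2 scale of TMM-scaled counts, with a class median of −2.13. Over all genes this share was 4.82%. With at least 10 counts in each library of the pair it was 1.24%, and Col5a1 alone of the fibrillar genes was then lower by more than 1. The 7 were Col5a1 and the 6 genes low in E1, which entered through V1. Col2a1 was among these 6, with 13 counts in V1 and 0 in E1. Within replicate 2 none of the 10 fibrillar genes with at least 10 counts in that pair was lower or higher by more than 1, and the median was 0.07. A replicate holds 1 library per group, so these differences have no replicate check of their own.

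Col3a1 (ENSMUSG00000026043, chr1:45311538-45349706), the chain of type III collagen in pliable tissues, had 4417 counts in V1, 6 in E1, 2189 in V2 and 4376 in E2. E1 was thus far under the other 3, while E2 (79.3 CPM) was above its vehicle library (59.7 CPM). The log2 difference was −9.49 (counting interval −10.94 to −8.37) in replicate 1 and 0.41 (0.34 to 0.48) in replicate 2. Its neighbour Col5a2, whose gene ends 24614 bases away on the other strand, had 2318, 5, 609 and 1004 counts in the same order. Col5a2, like the further members named outside the highest of each class, was picked after its values were seen.

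The type I chains had the same pattern. Col1a2 (ENSMUSG00000029661, chr6:4504814-4541544), the α2 chain of type I collagen, had 4469 counts in V1, 3 in E1, 1576 in V2 and 2347 in E2. Its log2 difference in replicate 1 was −10.51 (counting interval −12.78 to −8.96), the lowest of all members, beside −0.02 (−0.11 to 0.08) in replicate 2. Col1a1, the α1 chain, had 3962, 4, 1344 and 2040 counts. By raw counts Col1a1 was thus under Col1a2 in V1, V2 and E2. The gene lengths given with the counts were 6563 bases for Col1a1 and 12426 for Col1a2. Per kilobase of these lengths the Col1a1 level was 1.68 times that of Col1a2 in V1, 1.61 times in V2 and 1.65 times in E2, with overlapping intervals. The longest coding sequences held 1453 and 1372 residues, so the ratio rests on the lengths used. Type I collagen is mainly a heterotrimer with more α1 than α2 chains, which this ratio does not measure. In E1 the ratio was 2.52 with an interval of 0.427 to 17.2, too wide to tell it from the others.

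Col24a1 (ENSMUSG00000028197, chr3:145292472-145552011), a fibrillar chain known from developing bone and eye, did not follow the type I and III genes. It had 5346 counts in V1, 4943 in E1, 529 in V2 and 1110 in E2. Both replicate 1 libraries were high and both replicate 2 libraries were low. Its log2 difference was −0.08 (−0.13 to −0.02) in replicate 1 and 0.48 (0.33 to 0.63) in replicate 2. It accounted for 4943 of the 5981 fibrillar counts left in E1.

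The type V chains, which seed and thin type I fibrils, split among themselves. Col5a2 was at 5 counts in E1, whereas Col5a1 had 1202 counts in V1, 269 in E1, 461 in V2 and 902 in E2. Col5a3 had 1015, 502, 258 and 383 counts. The log2 difference in replicate 1 was −8.82 for Col5a2, −2.13 for Col5a1 and −0.98 for Col5a3. Per kilobase, Col5a1 ran at 0.586 times the level of Col5a2 in V1, 0.855 times in V2 and 1.01 times in E2, and at 60.8 times (25.7 to 189) in E1. Of the type XI and XXVII chains of cartilage, Col11a1 had 207 counts in V1 and 7 in E1, while Col11a2 and Col27a1 differed by −0.58 and −0.49.

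**Figure D2:**
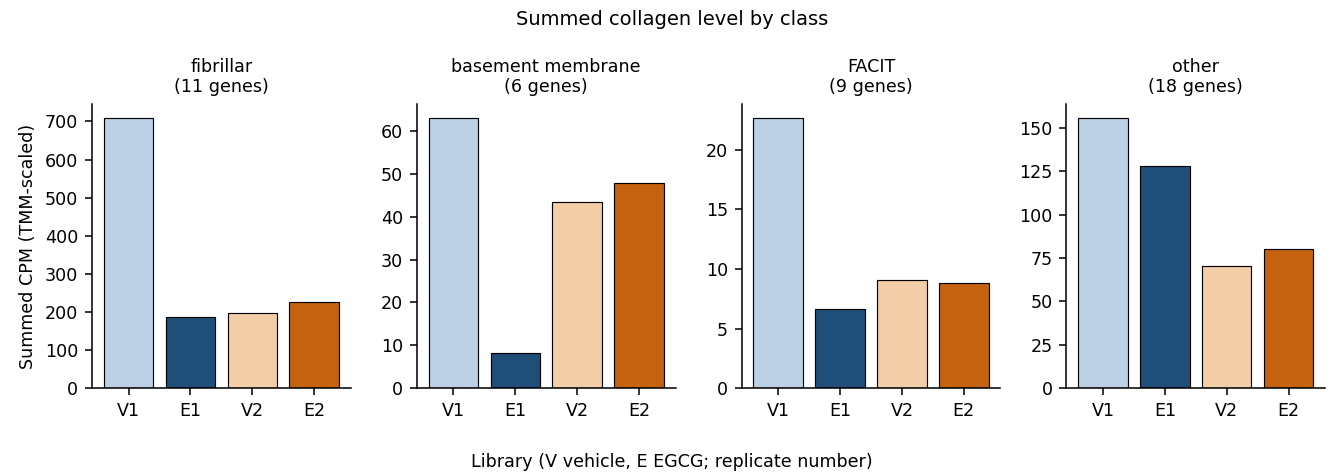
Summed CPM (TMM-scaled) of each collagen class in the vehicle (V) and EGCG (E) libraries of replicates 1 and 2, 1 bar per library and no error bars, each panel on its own scale from 0. The fibrillar bar of E1 (187 CPM) is close to those of V2 and E2 (196 and 226 CPM), while its basement membrane bar (8.24 CPM) is under the other 3 (43.5 to 63.1 CPM).

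Basement membrane collagens were low in E1 for the α1 and α2 chains and not for the α5 chain. The 6 genes summed to 63.1, 8.24, 43.5 and 47.8 CPM in V1, E1, V2 and E2. Col4a1 (ENSMUSG00000031502, chr8:11198423-11312826) had 1169, 46, 893 and 1476 counts in that order. Col4a2 (ENSMUSG00000031503, chr8:11312805-11449287) had 744, 35, 551 and 925. The pair encodes the common α1α1α2 trimer of basement membranes and lies head to head, with 22 bases in common. In replicate 1 the log2 difference was −4.63 (−5.09 to −4.21) for Col4a1 and −4.38 (−4.91 to −3.89) for Col4a2. In replicate 2 it was 0.14 and 0.16. The per-kilobase ratio of Col4a1 to Col4a2 was 1.39 (1.27 to 1.53), 1.17 (0.735 to 1.86), 1.44 (1.29 to 1.6) and 1.42 (1.3 to 1.54) in the 4 libraries, so the intervals overlapped although the levels in replicate 1 were 24.8-fold (Col4a1) and 20.8-fold (Col4a2) lower in EGCG. Col4a5, an X-linked chain of another type IV trimer, had 152, 176, 144 and 223 counts and differed by 0.25 (−0.08 to 0.57) and 0.04 (−0.27 to 0.35). Col4a6, its head-to-head neighbour at 1308 bases, stayed between 5 and 13 counts.

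FACIT collagens had few counts, and their members parted in the same way. The 9 genes summed to 22.7, 6.62, 9.06 and 8.86 CPM. Col12a1 (chr9:79598991-79718831), which coats type I fibrils in tendon and ligament, had 331 counts in V1, 9 in E1, 72 in V2 and 156 in E2. Col16a1 had 204, 2, 42 and 71 counts, a log2 difference of −6.64 (−9.69 to −4.77) in replicate 1. Col20a1 had 98, 90, 152 and 189 counts, with differences of −0.09 (−0.52 to 0.34) and −0.28 (−0.59 to 0.04). Col20a1 shares 79 exonic bases with an overlapping gene on the same strand, so some of its reads may belong there. Col9a3 and Col14a1 were also near their vehicle level in replicate 1 (0.07 and −0.02 on the log2 scale), with 79 and 26 counts in E1. Col9a3 shares 234 exonic bases with Tcfl5 on the other strand, which had at most 6 counts in any library. Col9a2 had at most 7 counts in any library.

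Among the other collagens the transmembrane chain Col23a1 held its level while the network and filament chains did not. Col23a1 (ENSMUSG00000063564, chr11:51289920-51583918) had 3699 counts in V1, 3624 in E1, 1967 in V2 and 3344 in E2. The log2 difference was 0.00 (−0.06 to 0.07) in replicate 1 and 0.18 (0.09 to 0.26) in replicate 2. Per kilobase of gene length it stood at 19.7, 19.7, 9.36 and 10.6 CPM, the highest collagen level in both replicate 2 libraries and behind Col24a1 alone in both replicate 1 libraries (21.4 and 20.2). This order rests on the gene lengths. In CPM not divided by length, Col23a1 (113, 53.7 and 60.6 in V1, V2 and E2) was under Col3a1 (135, 59.7 and 79.3). Col7a1, the anchoring fibril chain of skin, had 378, 129, 206 and 279 counts and was lower in EGCG in both replicates, with log2 differences of −1.52 (−1.82 to −1.22) and −0.15 (−0.42 to 0.11). Col18a1, a basement membrane proteoglycan whose end fragment is endostatin, had 251, 90, 165 and 290 counts. Its relative Col15a1 had 185, 236, 124 and 143 counts, with differences of 0.39 (0.10 to 0.67) and −0.38 (−0.74 to −0.03) that point in opposite directions.

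The beaded filament chains of type VI collagen and the network chains of type VIII collagen, which vessels and the cornea make, included the only members higher in EGCG by more than 1 in replicate 2. Col6a1 had 125 counts in V1, 3 in E1, 35 in V2 and 129 in E2. Col6a2 had 52, 0, 19 and 90 and Col6a3 36, 0, 4 and 17. Against the floor of 3 counts per library, Col6a2 was at least 16.9-fold lower and Col6a3 at least 11.7-fold lower in E1 than in V1. In replicate 2 the same 3 chains were higher in EGCG, by 1.29 (0.74 to 1.87), 1.65 (0.93 to 2.45) and 1.5 (−0.12 to 3.53). Col8a1 had 324, 1, 17 and 62 counts, a log2 difference of −8.31 (−13.61 to −5.82) in replicate 1 and 1.28 (0.48 to 2.14) in replicate 2. Col8a2 had 45, 1, 0 and 2 counts. Col6a6, in contrast, had 16, 13, 54 and 73 counts, more in both libraries of replicate 2 than in either of replicate 1.

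The collagen genes thus did not differ as a block. Of the 26 with at least 30 counts in V1, 12 had 10 or fewer in E1: Col1a1, Col1a2, Col3a1, Col5a2, Col11a1, Col12a1, Col16a1, Col6a1, Col6a2, Col6a3, Col8a1 and Col8a2. The other 14 differed by −4.63 to 0.39 on the log2 scale in that replicate. This division was set after the values were seen and carries no test. It asks for counts in V1, so the 12 entered through the library where they were higher. The share of all genes that met the same rule was not counted. The make-up of the collagen RNA differed accordingly. Col1a1, Col1a2 and Col3a1 gave 41.1% of collagen counts in V1 (exact interval 40.6 to 41.7), 0.123% in E1 (0.0655 to 0.21), 43.7% in V2 and 43.8% in E2. Col23a1 and Col24a1 gave 28.9%, 81.1%, 21.3% and 22.2% in the same order. The libraries of replicate 2 were close to each other in make-up, and V1 held a larger part of Col24a1 (5346 of its 31252 collagen counts, beside 529 of 11696 in V2).

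**Figure D3:**
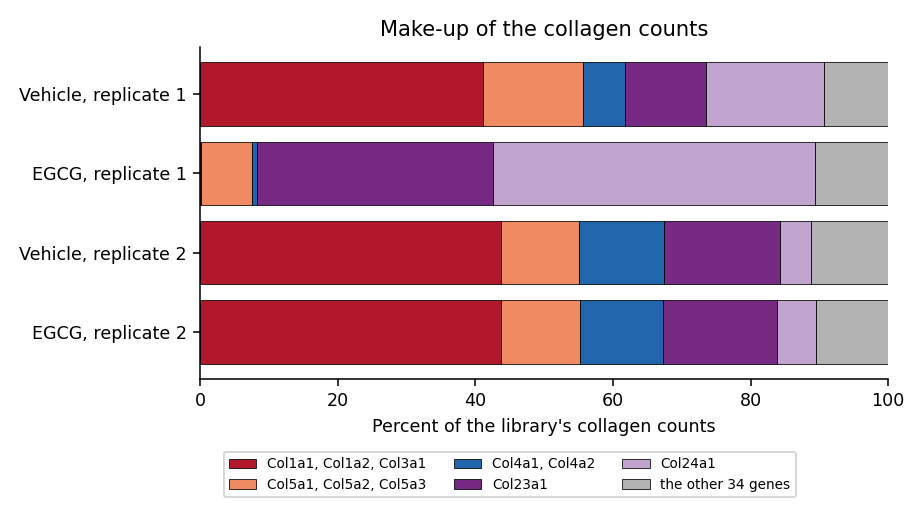
Percent of each library's collagen counts taken by groups of collagen genes, 1 bar per library, the segments adding to 100%. Col1a1, Col1a2 and Col3a1 fill 41.1% to 43.8% of 3 bars and 0.123% of E1, where Col23a1 and Col24a1 fill 81.1%.

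The within-replicate differences were set beside those of all genes. In replicate 1, 18 of 31 collagen genes with at least 10 counts in the pair (58.1%) were lower in EGCG by more than 1 on the log2 scale, beside 4.82% of 13107 genes. None was higher by more than 1, beside 1.46% of all genes. The collagen median was −2.08 and that of all genes 0.03. Of the 18, 13 had under 10 counts in E1 and so entered through V1, where they were higher, which makes the count a description of those genes only. With at least 10 counts in both libraries of replicate 1, 5 of 16 collagen genes (31.2%) were lower by more than 1, beside 1.24% of 12018 genes, and the collagen median was −0.38. In replicate 2 none of 28 collagen genes was lower by more than 1, beside 1.42% of 12998 genes, and 4 were higher (Col6a1, Col6a2, Col6a3 and Col8a1), beside 2.51%. The collagen median was 0.15 and that of all genes 0.00. In replicate 1, 26 of 31 collagen genes were below 0. In replicate 2, 10 of 28 were.

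**Figure D4:**
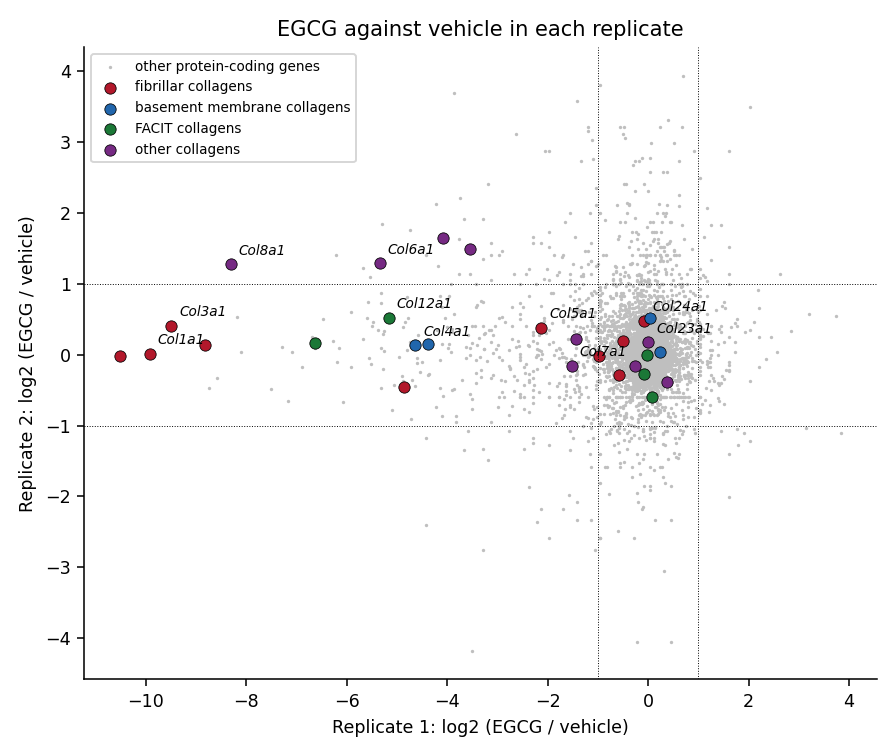
Log2 ratio of EGCG to vehicle in replicate 1 (x axis) and replicate 2 (y axis) for 12652 genes with at least 10 counts in each replicate; grey points are other protein-coding genes, coloured points the 28 collagen genes by class, and dotted lines mark −1 and 1 on the log2 scale. Collagen points spread from −10.51 to 0.39 along x and stay between −0.59 and 1.65 along y.

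Both replicates together gave no collagen gene that passed. In the edgeR quasi-likelihood test of EGCG against vehicle over 13811 genes, 0 of 32 collagen genes had an adjusted p under 0.1, beside 0% of all genes. That count of 0 does not show that levels did not differ. At an unadjusted p under 0.05 there were 0 collagen genes, beside 0.116% of all genes (16 genes). DESeq2 called no collagen gene after adjustment and 1 before it at 0.05 (Col11a1, DESeq2 adjusted p = 1), beside 0.174% of all genes. The median fitted log2 fold change of the 32 genes was −0.93, beside 0.01 for all genes, and 28 of 32 estimates were below 0. Without V1 that median was 0.13 over 28 genes and without E1 it was −0.81, so the sign rested on the high vehicle library of replicate 1. The smallest edgeR p of a collagen gene was 0.0764 (Col11a1).

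The fitted values of the highest members show how wide the errors were. The edgeR test gives no SE. Each edgeR SE in this report was derived as the unshrunken coefficient divided by the square root of the test's F statistic. By edgeR, the log2 fold change was −1.29 ± 2.12 (SE) for Col3a1 and −0.03 ± 1.49 for Col24a1. It was −1.08 ± 1.33 for Col4a1 and −1.07 ± 1.26 for Col4a2. For Col12a1 it was −1.94 ± 1.39 and for Col20a1 −0.19 ± 0.35. For Col23a1 it was 0.06 ± 0.51 and for Col7a1 −0.91 ± 0.44. The edgeR adjusted p was 1 for each of the 8 genes. Col20a1, Col7a1 and Col23a1 had the smallest standard errors of the 8, and those of Col3a1, Col24a1 and Col12a1 the largest.

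In 5 of 32 collagen genes both EGCG libraries were below both vehicle libraries in CPM (Col1a2, Col2a1, Col7a1, Col9a2 and Col11a1), beside 11.9% of all genes with groups that did not overlap in either direction. None had both EGCG libraries above. For Col1a2 the gap was narrow in replicate 2 (43.0 CPM in vehicle and 42.5 in EGCG), and Col2a1 and Col9a2 had at most 13 counts in any library.

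Collagen levels also differed between the replicate numbers. With treatment in the model, 10 of 32 collagen genes (31.2%) differed between replicate 1 and replicate 2 at an adjusted p under 0.1 by edgeR, beside 53.5% of all genes. Among genes with at least 10 counts in every library, 10 of 16 (62.5%) did, beside 64.4% of 11620 genes. Of the 10 among the 32, 9 were higher in replicate 1 (Col24a1, Col23a1, Col5a3, Col11a2, Col15a1, Col9a3, Col17a1, Col27a1 and Col14a1) and Col6a6 was lower. Col24a1 was higher by 3.21 ± 0.14 (SE, edgeR adjusted p = 0.000161) and Col23a1 by 0.98 ± 0.07 (adjusted p = 0.000426). Col17a1 had no count in replicate 2. Col1a1 and Col3a1 were not called (adjusted p = 0.732 and 0.55). Between the vehicle libraries alone, Col1a1 was 3.29 times, Col3a1 2.25 times and Col8a1 21.3 times as high in replicate 1 as in replicate 2. Replicate number and count table cannot be told apart.

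Genes that fold, process and bind collagen were examined as lists. Folding and modification in the endoplasmic reticulum is shared with other secreted proteins, and its 19 genes summed to 1990, 1981, 1858 and 1906 CPM. Its most abundant members P4hb, a subunit of prolyl 4-hydroxylase, Colgalt1, a galactosyltransferase of hydroxylysine, and Ppib, a prolyl isomerase, had log2 differences of −0.03, 0.09 and 0.11 in replicate 1 and of 0.02, 0.12 and 0.02 in replicate 2. In replicate 1, 3 of 18 measured genes were lower by more than 1, beside 4.82% of all genes, and the 3 were picked out after their values were seen. Serpinh1 (HSP47), the chaperone dedicated to procollagen, had 595, 2, 182 and 396 counts. Fkbp10, a prolyl isomerase of collagen folding, had 147, 0, 49 and 124, and Plod2, the lysyl hydroxylase of collagen telopeptides, had 163, 25, 99 and 121. The list's median was −0.02 in replicate 1 and 0.03 in replicate 2.

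Propeptide processing and cross-linking summed to 232, 47.4, 154 and 138 CPM, with 7 of 9 measured genes lower by more than 1 in replicate 1 and 0 of 8 in replicate 2. Over all genes this share was 4.82% in replicate 1 and 1.42% in replicate 2. Of the 8, Adamts14 was higher by more than 1 in replicate 2 (1.01), beside 2.51% of all genes. Genes with few counts in E1 entered through V1, as among the collagens. Lox, the lysyl oxidase that starts collagen cross-links, had 5516, 258, 3079 and 3793 counts. Bmp1, the procollagen C-proteinase, had 378, 68, 469 and 643. Loxl3 had 888, 1032, 1684 and 2338 and was not lower in replicate 1. Of the collagen receptors, 5 of 9 were lower by more than 1 in replicate 1 and 0 of 8 in replicate 2. Itga1 was higher by 3.05 in replicate 2, from 2 counts in V2 to 25 in E2. Itgb1, the common β1 integrin subunit, and Lair1, an inhibitory collagen receptor of leukocytes, differed by 0.03 and 0.27 in replicate 1. Mrc2, the endocytic collagen receptor Endo180 of mesenchymal cells, had 183, 2, 60 and 128 counts. By edgeR no gene of these 3 lists had an unadjusted p under 0.05 for EGCG against vehicle, beside 0.116% of all genes. With so few genes passing at all, this count of 0 says nothing particular about the lists.

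**Figure D5:**
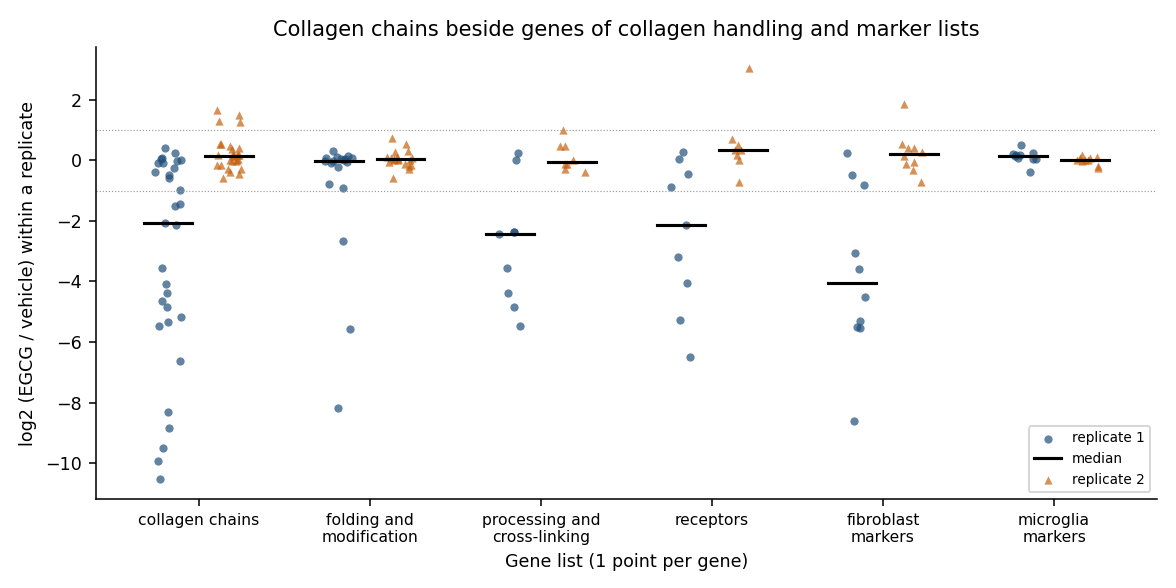
Log2 ratio of EGCG to vehicle within replicate 1 (circles) and replicate 2 (triangles) for each gene with at least 10 counts in the pair, in 6 gene lists; black lines are medians and dotted lines mark −1 and 1 on the log2 scale. In replicate 1 the medians are −2.08 for collagen chains and −4.05 for fibroblast markers beside 0.15 for microglia markers, and in replicate 2 all 6 lie between −0.06 and 0.35.

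Markers of fibroblasts were also low in E1. Of 10 fibroblast markers without collagens, 6 were at or under 3 counts in E1 (Dcn, Lum, Thy1, Fbln1, Twist1 and Mfap5, with Lum at 0), and 0 of 10 in each other library. Dcn, the fibril-binding proteoglycan decorin, had 788, 2, 493 and 589 counts. Pdgfra, the receptor that marks fibroblasts and oligodendrocyte precursors, had 122, 141, 43 and 95. The list's sum, most of it Fn1, a fibronectin gene that macrophages also express, was 565 to 2450 CPM in vehicle and 624 to 1716 CPM in EGCG. In replicate 1, 7 of 10 fibroblast markers were lower by more than 1 (median −4.05), beside 4.82% of all genes. The 6 at or under 3 counts in E1 entered through V1, where they were higher. In replicate 2 none was lower by more than 1 (median 0.21), beside 1.42% of all genes. Thy1 was higher there by 1.85, with 7 counts in V2 and 38 in E2.

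The other lists gave smaller sums. Pericyte and smooth muscle markers summed to 49.2 to 112 CPM in vehicle and 55.6 to 74.5 CPM in EGCG, with 3 of 4 measured genes lower by more than 1 in replicate 1, and the defining markers Kcnj8 and Rgs5 had at most 1 count in any library. Of the other markers, Cspg4 had 2478, 2323, 1436 and 2222 counts, Tagln 684, 11, 138 and 316, Acta2 353, 19, 89 and 319, and Pdgfrb 142, 30, 139 and 209. Tagln, Acta2 and Pdgfrb were lowest in E1. Meningeal markers were at 1.80 to 12.3 CPM in vehicle and 2.59 to 6.99 CPM in EGCG. In replicate 1, 2 of 4 were lower by more than 1 (Foxc1 and Tbx18), and Slc6a13 and Cdh1 differed by −0.33 and −0.38. Ptgds had at most 3 counts. Astrocyte markers were at 14.3 to 22.6 CPM in vehicle and 15.2 to 16.9 CPM in EGCG, with 3 of 7 lower by more than 1 in replicate 1. These were Gja1 (160 counts in V1 and 1 in E1), Aqp4 (20 and 0) and Gfap (12 and 2). Aldh1l1, the most abundant, differed by 0.21 there, and Slc1a2, Slc1a3 and Aldoc by −0.49 to −0.30. In replicate 2 none was lower by more than 1, and Slc1a2 was higher by 3.22 (2 counts in V2 and 28 in E2). Endothelial markers were at 73.2 to 183 CPM in vehicle and 81.5 to 181 CPM in EGCG. Lower by more than 1 were 2 of 4 in replicate 1 and 2 of 5 in replicate 2, and Cldn5, a defining gene, was at 0 in all 4 libraries. Most of the endothelial sum was Flt1, at 5740, 5601, 1955 and 3581 counts. Pecam1 had 2, 3, 580 and 741 counts, Kdr 169, 155, 109 and 155, and Cdh5 79, 26, 34 and 13, so Pecam1 was near 0 in replicate 1 and Cdh5 was lower in EGCG in both replicates (−1.57 and −1.98). None of 5 oligodendrocyte lineage genes and none of 10 microglia markers was lower by more than 1 in either replicate. In replicate 2, 2 of the 5 oligodendrocyte lineage genes were higher by more than 1, beside 2.51% of all genes. They were Olig1 (1.58, 10 counts in V2 and 45 in E2) and Olig2 (1.22, 8 and 28 counts). Over all genes, 4.82% were lower by more than 1 in replicate 1 and 1.42% in replicate 2. In bulk RNA, fewer cells of a type and less RNA per cell cannot be told apart, and the part of these cells in the collagen values was not tested.

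Promoters are shown because the type I, III and VIII chains and the Col23a1 and Col24a1 chains parted so clearly in E1. RefSeq windows (GRCm38.p6) matched 35 of the 44 genes by symbol, and 28 began within 100 bases of the start given in the count tables. The 250 bases before the start are printed for 4 of them, with 4 motifs in capitals wherever either strand held them. They were the TATA box (searched as TATAAA), the promoter element CCAAT, the GC box (searched as GGGCGG) and the core of PU.1 sites in myeloid genes (searched as GAGGAA). The genes and motifs were picked with the counts known, and no motif contains another.
Col3a1, chr1:45311288-45311537, + strand: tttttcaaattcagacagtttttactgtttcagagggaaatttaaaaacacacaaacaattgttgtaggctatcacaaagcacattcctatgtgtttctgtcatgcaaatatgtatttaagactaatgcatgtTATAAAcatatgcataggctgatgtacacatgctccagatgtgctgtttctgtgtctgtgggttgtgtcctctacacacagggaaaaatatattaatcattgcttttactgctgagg
Col8a1, chr16:57754738-57754987, − strand: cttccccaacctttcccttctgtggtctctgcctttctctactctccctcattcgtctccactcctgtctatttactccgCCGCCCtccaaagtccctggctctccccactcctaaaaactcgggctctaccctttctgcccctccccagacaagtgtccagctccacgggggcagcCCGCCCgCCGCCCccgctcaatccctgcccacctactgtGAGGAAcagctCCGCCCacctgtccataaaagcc
Col24a1, chr3:145292222-145292471, + strand: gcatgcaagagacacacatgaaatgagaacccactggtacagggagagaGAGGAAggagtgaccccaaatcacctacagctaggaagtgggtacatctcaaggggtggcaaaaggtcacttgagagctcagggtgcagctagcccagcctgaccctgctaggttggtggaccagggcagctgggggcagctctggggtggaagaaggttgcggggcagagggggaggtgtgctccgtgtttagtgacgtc
Col23a1, chr11:51289670-51289919, + strand: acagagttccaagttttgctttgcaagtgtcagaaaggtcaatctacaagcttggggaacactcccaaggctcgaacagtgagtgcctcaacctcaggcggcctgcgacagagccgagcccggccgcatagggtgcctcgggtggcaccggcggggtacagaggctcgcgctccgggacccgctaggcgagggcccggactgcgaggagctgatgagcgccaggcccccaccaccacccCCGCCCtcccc
GAGGAA stood in the printed window of Col24a1, 201 bases before the start, and in that of Col8a1, 34 bases before it. It was present in 6 of the 28 collagen windows and in 23.3% of all 32851 windows. TATAAA was in 4 of the 28 and in 12.4% of all windows. Col3a1 was among the 4, with its match 117 bases before the start, and whether it acts as a TATA box was not tested. GGGCGG was in 16 of the 28 and in 32.7% of all, and CCAAT in 10 of the 28 and in 33.8% of all. A match is a run of letters, and binding was not measured in these libraries.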

How the data were processed

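RNA of primary microglia was measured in 4 libraries, 2 vehicle and 2 EGCG. The authors deposited raw counts per gene, 1 table per replicate number, with a vehicle and an EGCG column each. Reads from directional poly-A libraries had been filtered and aligned with HISAT2 to GRCm38.p6 per the labels and the study's methods; the counting program, the annotation and the strand setting are not given in the sources used here, so reads of overlapping genes cannot be assigned with certainty. Groups came from the labels. Each table's replicate number came from the study's metadata.

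The tables were joined on Ensembl identifiers (54532 genes), and 697 and 329 loci without one, holding 0.11% to 0.156% of counts, were left out. Protein-coding genes with at least 10 counts over the 4 libraries (13811) were tested with edgeR 4.0.16 in R 4.3.3 (TMM, quasi-likelihood, two-sided, treatment only, Benjamini-Hochberg adjustment over all of them), and with DESeq2 1.42.0 as an alternative. The fits were tested on simulated data first, where edgeR without a replicate term recovered none of the changed genes, DESeq2 most of them, and edgeR with the replicate block all of them with some false calls. CPM uses TMM-scaled library sizes. Within a replicate, log2 ratios of TMM-scaled counts set a 0 at 3 counts and need 10 counts in the pair, and a difference past 1 is counted with no test. The vehicle libraries differed from each other by a chi-square of 264 per gene and the EGCG libraries by 263, so none was a copy. Gly-X-Y runs were counted in translated GENCODE M21 coding sequences, and promoters were taken from RefSeq.

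Counts are printed for the 3 members of each class with the highest mean CPM and fitted values for the highest 2. The members, classes and lists were chosen with earlier results of these data known.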

Additional observations from a re-analysis of the deposited data

How the results depend on the processing

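Another normalization (DESeq2 size factors or upper-quartile factors in edgeR), no filter beyond 1 count, at least 10 counts in every library and genes of all biotypes each left 0 collagen genes for EGCG against vehicle, adjusted or not, and the median between −0.98 and −0.23. These fits were edgeR without a replicate term, which passed 0% of all genes after adjustment and recovered no changed gene in the simulation. Their zeros therefore do not show that the result is stable. At an unadjusted p under 0.05, DESeq2 gave 1 gene, and leaving out 1 library gave 0 to 11 (5 without vehicle replicate 2, beside 0.418% of 13643 genes, and 11 without EGCG replicate 2, beside 0.972% of 13480 genes, in edgeR with the lone library assumed to vary like the others). The median log2 fold change then ran from −1.86 without EGCG replicate 2 to 0.13 without vehicle replicate 1, where it reversed. Without vehicle replicate 1 the difference in collagen share reversed to 0.00142 percentage points, and over the 4 such values it ran from −0.0602 to 0.00142. Replicate-number calls moved from 10 to 5 with DESeq2, that is from 31.2% to 15.6% of the 32 collagen genes. Over all 13811 genes they moved from 53.5% to 35.5%. Leaving out a library could not be fitted for the replicate number, since no residual degree of freedom remains. With at least 10 counts in each library of replicate 1, which drops the genes near 0, 5 of 16 collagen genes were lower by more than 1. Libraries with the same replicate number deviated together over all 13811 genes (correlation of their deviations 0.641) and not over the 32 collagen genes (−0.0567), which is a hint from the data and not from the design. The replicate block in edgeR gave 0 collagen genes, beside 3.21% of all genes at an unadjusted p under 0.05, and a median of −0.93, and in DESeq2 2 at that level (Col5a3 and Col7a1), beside 1.11%. With the block, Col24a1 reversed to 0.17 in edgeR and 0.19 in DESeq2. Leaving out libraries, Col24a1 ran from −2.14 to 2.60, Col20a1 from −0.41 to 0.05 and Col23a1 from −0.46 to 0.70. Without EGCG replicate 2, Col3a1 was at −9.02 (−1.29 with all libraries), Col4a1 at −4.41 (−1.08), Col4a2 at −4.14 (−1.07) and Col12a1 at −4.44 (−1.94), whereas their highest values were −0.30, −0.17, −0.17 and −0.32, at an edgeR adjusted p of 1 throughout. Of 150 alternative values, 129 were rated the same, by rules that differed between results. Fitted values had to keep their direction and side of the threshold, and shares their sign alone. Counts had to stay within a set fold, and some of these were 0 beside 0. Medians had to keep their sign and move by less than 1.58, the SD of the replicate medians. A median of −0.23 beside −0.93 was thus rated the same. The cause of these changes was not tested.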
